A study of Bos indicus x Bos taurus with 17 samples.

Results

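The aminoacyl-tRNA synthetases were examined in the gene counts of fetal cattle liver and skeletal muscle. The 36 genes, 20 encoding cytosolic and 16 encoding mitochondrial enzymes, were taken by symbol from the 21048 genes listed for each tissue, and every symbol matched a single gene in both tables. The fetuses were F1 crosses of Bos taurus indicus (Nelore) and Bos taurus taurus (Holstein), collected at about day 105 of gestation and recorded as healthy. Conception methods were compared, with 2 fetuses conceived by artificial insemination (Control-AI 2 and 4) and 4 by assisted reproductive technology (ART-Normal 1 to 4). According to the methods, ART-Normal fetuses were produced in vitro and had a weight similar to the controls, but the labels give ART-Normal 4 only as conceived by assisted reproduction and the fetuses weighed in the methods do not include it. Both tissues were taken from each of the 6 fetuses, and the fetus is the replicate.

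Aminoacyl-tRNA synthetases join each amino acid to its tRNA and so supply the substrates of the ribosome. Animals use one set in the cytosol and another, encoded by separate nuclear genes and imported, in the mitochondria, where the electron transport proteins encoded by mitochondrial DNA are made. Mitochondrial enzymes carry the suffix 2, as in HARS2 beside the cytosolic HARS. Some cytosolic enzymes, among them the fused glutamyl-prolyl enzyme EPRS, sit in a multisynthetase complex held together by the scaffold proteins AIMP1, AIMP2 and EEF1E1. GARS and KARS are further known for supplying both compartments from a single gene. Transcription of many cytosolic synthetases is known to be raised by ATF4, the transcription factor of the amino acid response.

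Total counts ranged from 12433300 to 43339598 per library, with a median of 22962538.5. Levels are given as CPM, the count of a gene scaled to a common library size, on a single TMM scale (trimmed mean of log ratios) over the 12 libraries. The counts cover whole gene spans, introns included, and no transcript length was at hand, so levels were compared between samples and not between genes. In bulk tissue, fewer cells of a type and less RNA per cell cannot be told apart. The marker genes went with the tissue labels. The summed level of 7 hepatocyte markers was 28257 CPM or more in every liver and 345 CPM or less in every muscle, and that of 7 skeletal muscle markers was 13692 CPM or more in muscle and 24.5 CPM or less in liver. Control-AI 2 stood apart from the other 5 fetuses in both tissues. Its hepatocyte marker sum was 335928 CPM in liver, against 28257 to 54968 CPM in the other 5 livers, and the same markers reached 345 CPM in its muscle, against 5.37 to 45.8 CPM elsewhere. The elongation factor EEF1A1, which brings charged tRNA to the ribosome, was at 579 CPM in the liver and 735 CPM in the muscle of Control-AI 2, against 2688 CPM or more in each of the other 10 libraries. The part of these differences in the results was not tested. The other marker sums were 4962 to 5680 CPM in liver and 7.02 to 18.7 CPM in muscle for 7 erythroid genes, 209 to 256 and 71.7 to 98.0 CPM for 4 macrophage genes, 543 to 1152 and 20705 to 26679 CPM for 5 connective tissue genes, and 186 to 224 and 558 to 625 CPM for 3 endothelial genes, so the tissues also differed in cell makeup, and its part in the tissue comparison was not tested.

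The first comparison was between tissues. Of the 36 synthetases, 23 were higher in liver, 4 were higher in muscle and 9 did not pass the test (edgeR quasi-likelihood test over 12940 genes, Benjamini-Hochberg adjusted p at most 0.05, conception as a covariate). Among all genes tested, 40.6% were higher in liver and 40.7% higher in muscle, so most genes differed between these tissues in one direction or the other. The median log2 difference, liver minus muscle, was 0.43 for the cytosolic and 0.39 for the mitochondrial enzymes, and 0.01 for all genes. By class, 15 of 20 cytosolic enzymes were higher in liver and 2 in muscle, and 8 of 16 mitochondrial enzymes were higher in liver and 2 in muscle. MARS2, at 4.68 to 5.86 CPM in muscle, passed the filter on low values through liver only so it could only be called higher there. Without it, 22 and 4 of 35 members were higher in liver and in muscle, and 7 and 2 of 15 mitochondrial enzymes. Of the genes that passed the filter in both tissues, 39.5% were higher in liver and 37.3% higher in muscle. All 6 livers lay above all 6 muscles for 17 members and below them for 2, against 31.8% and 32.6% of all genes.

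**Figure D1:**
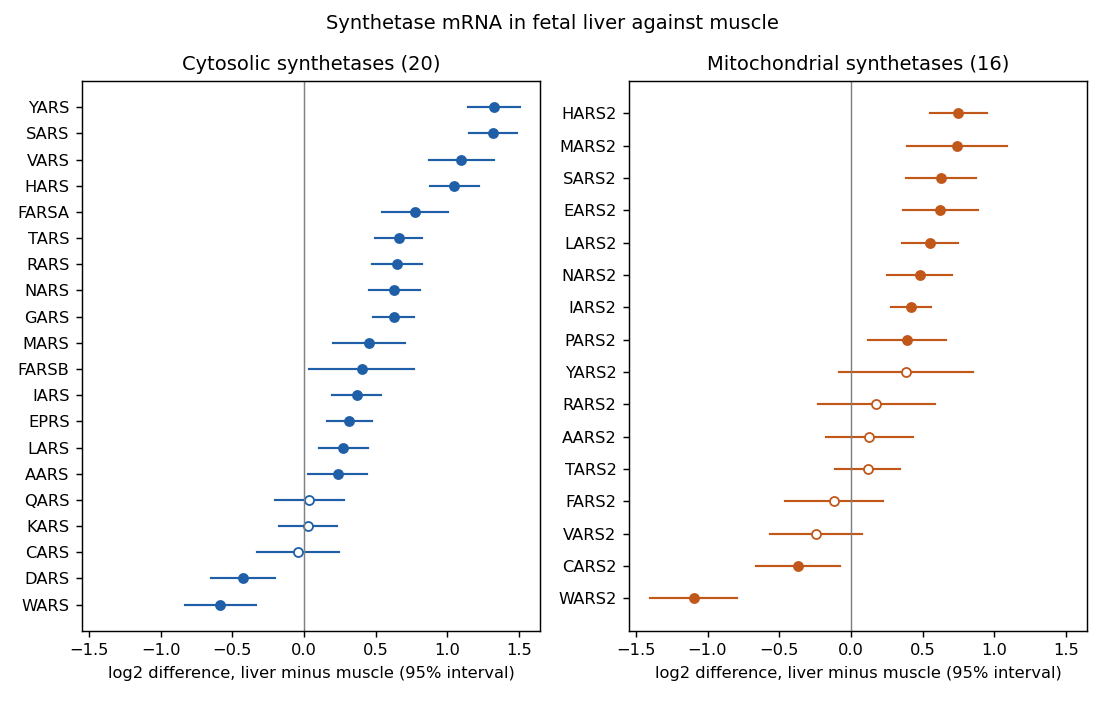
Difference in mRNA level between fetal liver and muscle for the 20 cytosolic (left) and 16 mitochondrial (right) synthetases, on the log2 scale with positive values higher in liver. Lines are 95% intervals, and filled points passed an adjusted p of 0.05. Cytosolic values run from -0.58 (WARS) to 1.32 (YARS), and mitochondrial values from -1.10 (WARS2) to 0.75 (HARS2).

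In the cytosolic class 4 enzymes were more than 2-fold higher in liver, and all of them act outside the multisynthetase complex. YARS, the tyrosyl enzyme (gene ID 281581, chr2:120849176-120881197 of ARS-UCD1.2, plus strand), had a level of 68.6 to 90.9 CPM in liver with a median of 83.4 CPM, and 28.4 to 35.8 CPM in muscle with a median of 32.9 CPM. The log2 difference was 1.32 ± 0.08 (SE; adjusted p = 2.5e-09), a 2.50-fold higher level in liver. YARS overlaps S100PBP on the opposite strand over 13763 of its 32022 bases, and S100PBP had 57.0 to 92.0 CPM in liver and 119 to 167 CPM in muscle. SARS, the seryl enzyme (281476, chr3:34169921-34189786, minus strand), lay at 78.0 to 90.9 CPM in liver and 31.6 to 39.6 CPM in muscle. Its log2 difference was 1.32 ± 0.08 (SE; adjusted p = 1.3e-09). The log2 ratios of the single fetuses ran from 1.24 to 1.45 for YARS and 1.19 to 1.46 for SARS.

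VARS, the valyl enzyme (505556, chr23:27533023-27546153, plus strand), had 111 to 157 CPM in liver and 57.4 to 80.2 CPM in muscle, a log2 difference of 1.10 ± 0.10 (SE; adjusted p = 2.3e-07). HARS, the histidyl enzyme (510937, chr7:51803876-51817044, minus strand), had 57.7 to 67.8 CPM in liver and 28.5 to 36.3 CPM in muscle, a log2 difference of 1.05 ± 0.08 (SE; adjusted p = 1.9e-08). For both genes the tissues did not overlap. FARSA, the catalytic alpha subunit of the cytosolic phenylalanyl enzyme, followed with a log2 difference of 0.77, while FARSB, its partner beta subunit, differed by 0.40. TARS, RARS, NARS and GARS lay between 0.63 and 0.66. The call of FARSB (adjusted p = 0.042) was lost without any 1 of the 4 ART-Normal fetuses (adjusted p = 0.079 to 0.11). That of the alanyl enzyme AARS (log2 difference 0.23; adjusted p = 0.036) was lost without ART-Normal 2, 3 or 4 (adjusted p = 0.083, 0.061 and 0.053).

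A smaller group was level between the tissues or higher in muscle. WARS, the tryptophanyl enzyme (281576, chr21:65238587-65261044, minus strand), had 18.1 to 28.3 CPM in liver and 27.9 to 36.6 CPM in muscle, so the ranges overlapped slightly. Its log2 difference was -0.58 ± 0.11 (SE; adjusted p = 3.2e-04), with a higher level in the muscle of 6 of 6 fetuses. DARS, the aspartyl enzyme of the complex (510162, chr2:61390819-61455631, plus strand), had 57.5 to 80.9 CPM in liver and 81.1 to 104 CPM in muscle, with no overlap and a log2 difference of -0.43 ± 0.10 (SE; adjusted p = 0.0016). CARS, KARS and QARS, for cysteine, lysine and glutamine, did not pass. Their log2 differences were -0.04 (95% interval -0.33 to 0.24), 0.03 (-0.18 to 0.23) and 0.04 (-0.20 to 0.28).

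The cytosolic enzymes were also divided by membership of the multisynthetase complex. The 8 complex members had a median log2 difference of 0.30, with 5 higher in liver and 1 higher in muscle, and the 12 other cytosolic enzymes a median of 0.65, with 10 higher in liver and 1 higher in muscle, beside 40.6% and 40.7% of all genes tested. No test of the gap between these lists was run. The scaffold proteins did not move as a unit. AIMP2 was higher in liver (log2 difference 0.50 ± 0.11 SE; adjusted p = 0.0011), AIMP1 was higher in muscle (-0.50 ± 0.12 SE; adjusted p = 0.0012), and EEF1E1 had a log2 difference of 0.07 (adjusted p = 0.67).

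**Figure D2:**
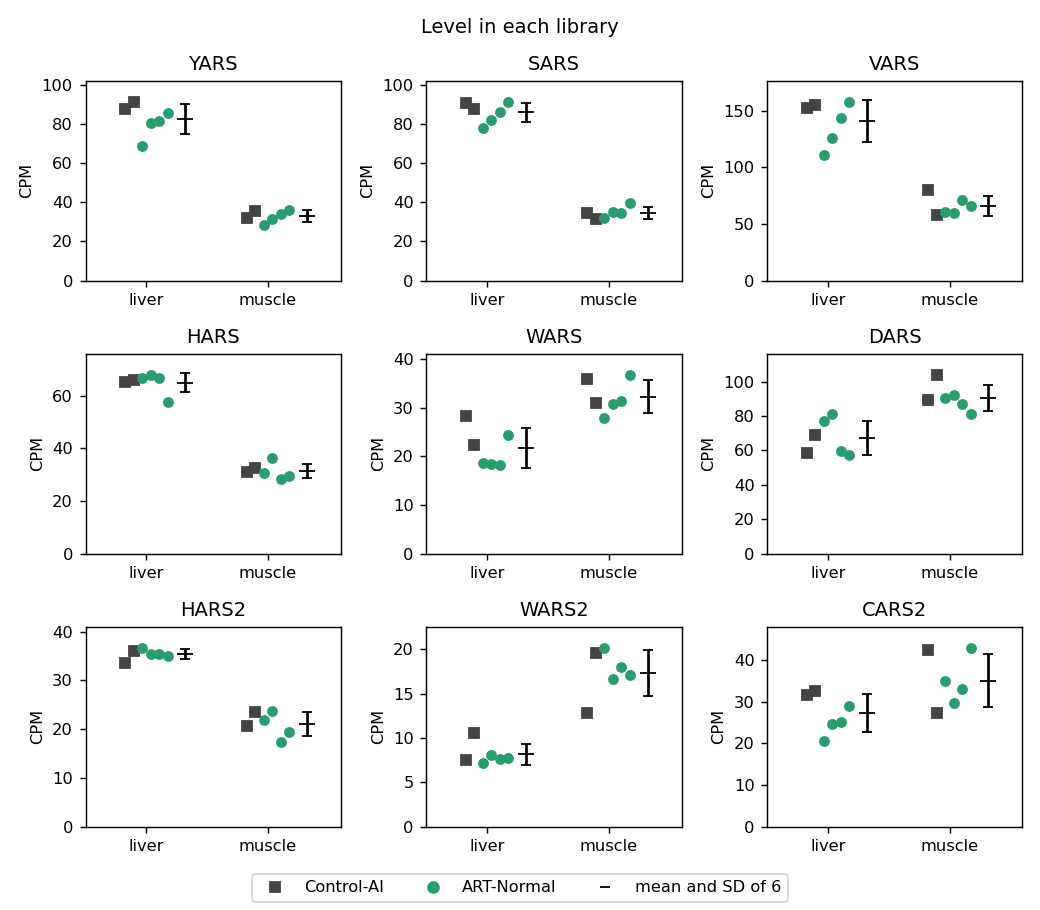
Level in CPM (vertical axes, each starting at 0) of 9 synthetases in the 6 livers and 6 muscles. Squares are Control-AI, circles ART-Normal, and the black mark is the mean with SD of the 6 libraries. YARS, SARS, VARS, HARS and HARS2 are higher in every liver than in any muscle, and DARS and WARS2 are lower in every liver than in any muscle.

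Among the mitochondrial enzymes the largest liver excess was that of HARS2 (615182, chr7:51817093-51824123, plus strand), which had 33.6 to 36.5 CPM in liver and 17.3 to 23.6 CPM in muscle. The log2 difference was 0.75 ± 0.09 (SE; adjusted p = 3.4e-06). HARS2 lies head to head with HARS, with 48 bases between the genes, and both were higher in liver in 6 of 6 fetuses. Across the 6 livers HARS2 had the lowest spread of any mitochondrial enzyme, a coefficient of variation (CV, the SD as a percent of the mean) of 2.87%. MARS2, for methionine (514726, chr2:86189671-86191914, plus strand), had 5.86 to 10.3 CPM in liver and 4.68 to 5.86 CPM in muscle, a log2 difference of 0.74 ± 0.16 (SE; adjusted p = 7.1e-04). The whole of MARS2 lies inside RFTN2 on the opposite strand, and RFTN2 had 55.9 to 66.3 CPM in muscle and 1.42 to 13.1 CPM in liver. SARS2, for serine (282060, chr18:48630040-48639101, minus strand), had 18.1 to 29.0 CPM in liver and 13.1 to 19.5 CPM in muscle, with a log2 difference of 0.63 ± 0.11 (SE; adjusted p = 1.4e-04). EARS2, LARS2, NARS2, IARS2 and PARS2 were also higher in liver, by 0.39 to 0.62 on the log2 scale. The call of PARS2 was lost under library size alone (0.25; adjusted p = 0.13).

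WARS2, the mitochondrial tryptophanyl enzyme (532903, chr3:23999216-24093704, plus strand), went the other way and was the member furthest toward muscle. Its level was 7.20 to 10.5 CPM in liver, with a median of 7.71 CPM, and 12.8 to 20.1 CPM in muscle, with a median of 17.5 CPM. The log2 difference was -1.10 ± 0.14 (SE; adjusted p = 5.4e-06), a 2.14-fold higher level in muscle. CARS2, for cysteine (506598, chr12:85239187-85258325, minus strand), had 20.6 to 32.6 CPM in liver and 27.4 to 42.8 CPM in muscle, with a log2 difference of -0.37 ± 0.14 (SE; adjusted p = 0.022). The groups overlapped, and the call was lost without Control-AI 2 (adjusted p = 0.068), without ART-Normal 1 (adjusted p = 0.079) or without ART-Normal 3 (adjusted p = 0.057). VARS2, for valine (100847824, chr23:28146748-28159140, minus strand), did not pass at -0.24 ± 0.15 (SE; adjusted p = 0.15; 95% interval -0.57 to 0.08). FARS2, TARS2, AARS2, RARS2 and YARS2 did not pass either. With the fetus as a block, pairing liver and muscle of the same animal, YARS2 was called higher in liver (log2 difference 0.42; adjusted p = 0.0052), while without the block it was not (0.38; adjusted p = 0.12). YARS2 was also called higher in liver without Control-AI 2 (0.59; adjusted p = 7.7e-05) or without Control-AI 4 (0.43; adjusted p = 0.0063), and RARS2 without Control-AI 2 (0.27; adjusted p = 0.042).

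Cytosolic and mitochondrial enzymes for the same amino acid were set side by side in 17 pairs, counting EPRS with both EARS2 and PARS2 and FARS2 with both FARSA and FARSB. In 12 pairs the cytosolic enzyme had the higher liver-minus-muscle log2 difference, and in 8 pairs this held in each of the 6 fetuses. The valine pair was furthest apart, with VARS at 1.10 and VARS2 at -0.24, and the per-fetus gap between them had a mean of 1.37 ± 0.31 (SD, n = 6) on the log2 scale. For tyrosine the mean gap was 0.90 ± 0.37 (SD, n = 6) and for serine 0.69 ± 0.19 (SD, n = 6). Methionine was the only pair with the larger value for the mitochondrial enzyme in all 6 fetuses, with MARS at 0.45 and MARS2 at 0.74. MARS2 passed the filter on low values through liver only and lies inside RFTN2 on the opposite strand. Tryptophan was the only amino acid for which both enzymes were called higher in muscle.

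**Figure D3:**
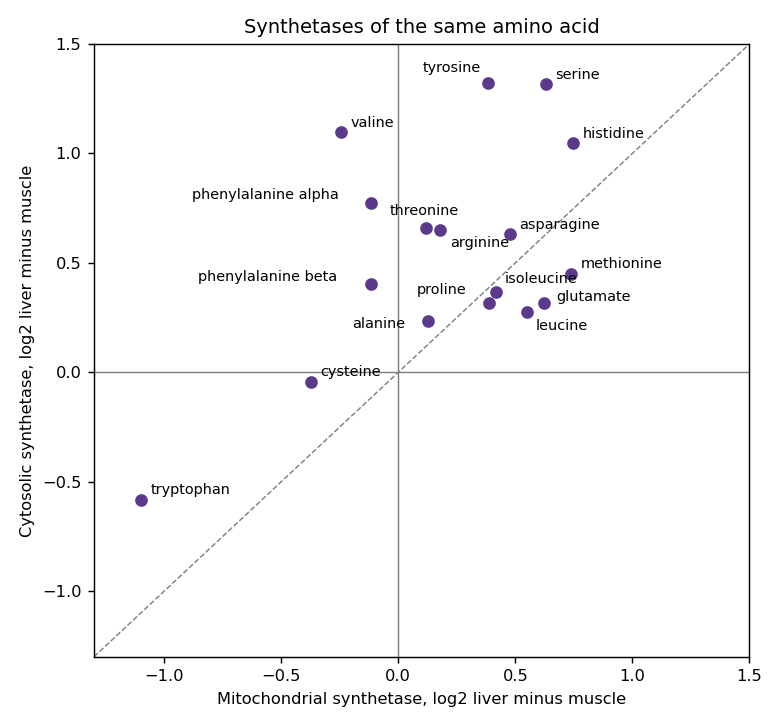
Log2 difference, liver minus muscle, of the mitochondrial synthetase (horizontal axis) and the cytosolic synthetase (vertical axis) for the same amino acid; alpha and beta are FARSA and FARSB, both set against FARS2. The dashed line marks equal values. Above it lie 12 of the 17 pairs, and tryptophan alone has both enzymes well below 0.

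Summed over each class on the TMM scale, the levels were steady between fetuses. The 20 cytosolic enzymes added up to 2018 to 2118 CPM in liver and 1483 to 1612 CPM in muscle, with no overlap. The mean log2 ratio of liver over muscle was 0.41 ± 0.04 (SD, n = 6 fetuses). The 16 mitochondrial enzymes added up to 598 to 702 CPM in liver and 507 to 610 CPM in muscle, with a mean log2 ratio of 0.27 ± 0.08 (SD, n = 6). The mitochondrial sum was highest in Control-AI 2 in both tissues, at 702 and 610 CPM. In liver this rank depended on the scaling. Under library size alone the liver of Control-AI 2 had the lowest mitochondrial sum, 534 CPM against 576 to 683 CPM in the other livers. Its cytosolic sum was then lowest too, at 1556 CPM against 1944 to 2205 CPM. The spread of individual enzymes between fetuses was given by the CV. The median CV in liver was 15.0% for the mitochondrial and 9.96% for the cytosolic enzymes, and in muscle 14.2% and 8.55%. Without Control-AI 2 the medians in muscle were 8.81% and 9.10%, and in liver 12.7% and 8.36%.

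Genes that work beside the synthetases were read from lists. The amino acid response was represented by a list of 25 genes, ATF4 itself among them. Of these, 24 were tested and 19 were higher in liver and 3 in muscle, beside 40.6% and 40.7% of all genes tested. Of the 24, 7 passed the filter on low values in liver only, and among the other 17 the counts were 12 and 3, beside 39.5% and 37.3% of the genes past the filter in both tissues. The list held large differences in both directions. ASNS, asparagine synthetase, was 5.96-fold higher in muscle, at 122 to 169 CPM against 21.6 to 27.1 CPM in liver (log2 difference -2.57 ± 0.10 SE; adjusted p = 1.6e-11). EIF4EBP1, a translation repressor, and VLDLR, a lipoprotein receptor, were the other genes higher in muscle. PHGDH, PSAT1 and PSPH, the enzymes of serine synthesis, were all higher in liver, by 2.61, 1.84 and 1.94 on the log2 scale. SARS and SARS2, which charge tRNA with serine, were higher in liver too. For asparagine the directions differed, with NARS and NARS2 higher in liver (0.63 and 0.48) and ASNS higher in muscle. A link between synthesis and charging of an amino acid was not tested. SLC7A5, a carrier of large neutral amino acids, had 182 to 249 CPM in liver and 3.96 to 10.5 CPM in muscle. NUPR1, a stress-induced nuclear protein, had 34.1 to 64.7 CPM in liver and 0.601 CPM or less in muscle, the largest excess of the list (log2 difference 6.98). SLC7A5 and NUPR1 are among the 7 genes past the filter in liver only, so they could only be called higher there. ATF4 itself differed by 0.38 ± 0.10 (SE; adjusted p = 0.0035). CHAC1 was below the filter in both tissues.

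Factors that act after tRNA charging were also compared. Of 13 mitochondrial translation factors, 6 were higher in liver and none was called higher in muscle (edgeR; MTIF2 and GATB had negative values), beside 40.6% and 40.7% of all genes tested. The mitochondrial elongation factor TUFM had a log2 difference of 0.69 ± 0.08 (SE; adjusted p = 2.7e-06), and the initiation factor MTIF3 the largest at 1.40 ± 0.27 (SE; adjusted p = 2.9e-04). Of 7 cytosolic elongation factors 6 were tested, of which 1 was higher in liver and 4 were higher in muscle, beside the same shares of all genes. EEF1B2, EEF1D, EEF1G and EEF2 were higher in muscle, by 0.31 to 0.78 on the log2 scale, and EIF5A was higher in liver by 1.23. EEF1A1, low in Control-AI 2, had a log2 difference of -0.85 ± 0.43 (SE; adjusted p = 0.080) and did not pass.

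The second comparison was between methods of conception within each tissue. No synthetase passed the test in either tissue. In liver, 0 of 36 members were called by edgeR's quasi-likelihood test, beside 0.0% of the 11375 genes tested, and 3 members had an unadjusted p under 0.05, beside 8.33% of all genes. In muscle, 0 of 35 members were called, beside 0.00855% of 11690 genes, and 3 had an unadjusted p under 0.05, beside 8.97%. MARS2 was below the filter in muscle. The likelihood ratio test called no member in either tissue, beside 0.8% of all genes in liver and 1.121% in muscle. DESeq2 called no member in liver, beside 0.501% of all genes, and 1, YARS2, in muscle, beside 0.932%. Median log2 differences, ART-Normal minus Control-AI, were -0.02 and -0.05 for the cytosolic and mitochondrial enzymes in liver (0.03 for all genes), and -0.04 and -0.11 in muscle (0.01 for all genes). The direction of these medians was not stable. Without Control-AI 2 the muscle medians were 0.0039 and 0.035, without ART-Normal 3 the cytosolic median in muscle was 0.0022, and without ART-Normal 1 the mitochondrial median in liver was 0.0018.

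**Figure D4:**
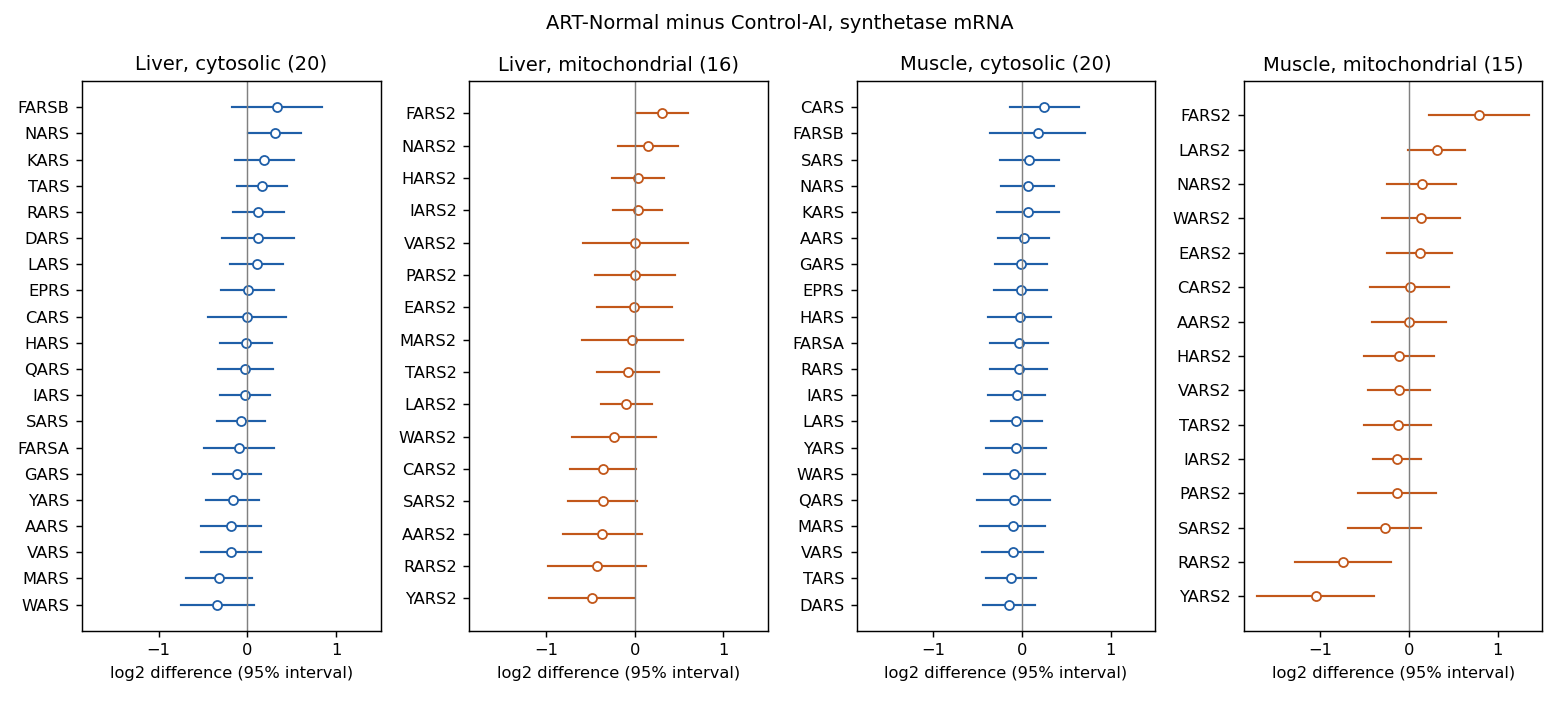
Log2 difference, ART-Normal minus Control-AI, with its 95% interval for the cytosolic and mitochondrial synthetases in liver (left pair of panels) and muscle (right pair). Open points did not pass an adjusted p of 0.05, and no member passed. Values run from -0.49 (YARS2) to 0.34 (FARSB) in liver and from -1.05 (YARS2) to 0.79 (FARS2) in muscle.

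YARS2, the mitochondrial tyrosyl enzyme (536956, chr5:77131736-77158405, plus strand), had the lowest value in both tissues. In muscle the controls 2 and 4 stood at 90.7 and 32.7 CPM, with 32.3, 29.2, 30.0 and 27.3 CPM in ART-Normal 1 to 4. Both controls were above all 4 ART-Normal fetuses, as were the controls for 6.39% of all genes, but only Control-AI 2 stood far from the rest. The log2 difference was -1.05 ± 0.30 (SE; unadjusted p = 0.0050, adjusted p = 0.33), and without Control-AI 2 it was -0.15 (adjusted p = 0.98). In liver it stood at 79.9 and 44.6 CPM in the controls and 49.8, 46.4, 40.8 and 39.2 CPM in ART-Normal 1 to 4, a log2 difference of -0.49 ± 0.21 (SE; unadjusted p = 0.048, adjusted p = 0.59), which was -0.018 without Control-AI 2.

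RARS2, the mitochondrial arginyl enzyme (525894, chr9:62337264-62428150, plus strand), showed the same fetus apart. In liver the controls 2 and 4 had 56.8 and 28.4 CPM, with 33.2, 35.9, 29.3 and 26.9 CPM in ART-Normal 1 to 4. In muscle it was 58.8 and 28.0 CPM in the controls, and 26.7, 28.7, 23.7 and 24.4 CPM in ART-Normal 1 to 4. The log2 differences were -0.43 (adjusted p = 0.60) in liver and -0.74 (adjusted p = 0.38) in muscle, and without Control-AI 2 they were 0.14 and -0.12. Both YARS2 and RARS2 overlap a gene on the opposite strand. DNM1L, which covers 13957 of the 26670 bases of YARS2, had 58.4 CPM in the liver and 80.0 CPM in the muscle of Control-AI 2, within the range of the other fetuses (51.1 to 66.8 and 71.5 to 85.4 CPM). SLC35A1, beside RARS2, had 39.0 and 49.3 CPM there, against 40.5 to 47.0 and 38.9 to 50.5 CPM elsewhere.

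FARSB (788792, chr2:110746220-110820162, minus strand) was low in the same fetus. In liver the controls 2 and 4 had 40.9 and 77.8 CPM, with 77.4, 78.2, 70.4 and 73.7 CPM in ART-Normal 1 to 4. In muscle it had 31.0 and 64.9 CPM in the controls, and 55.5, 55.6, 49.3 and 59.2 CPM in ART-Normal 1 to 4. The log2 differences of 0.34 in liver (adjusted p = 0.63) and 0.18 in muscle (adjusted p = 0.88) became -0.05 and -0.25 without Control-AI 2. The partner subunit FARSA did not share this, with 44.0 CPM in the liver and 24.0 CPM in the muscle of Control-AI 2, inside the range of the other fetuses.

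FARS2, the mitochondrial phenylalanyl enzyme (505390, chr23:49111514-49417402, minus strand), had the highest value in muscle. There the controls 2 and 4 had 23.8 and 41.9 CPM, with 55.7, 41.8, 74.2 and 58.3 CPM in ART-Normal 1 to 4, a log2 difference of 0.79 ± 0.25 (SE; unadjusted p = 0.011, adjusted p = 0.38). It was 0.44 without Control-AI 2 (adjusted p = 0.97). In liver FARS2 was 40.4 and 36.5 CPM in the controls and 45.1, 45.0, 47.7 and 51.7 CPM in ART-Normal 1 to 4, so every ART-Normal liver was above both controls, as for 9.75% of all genes. The log2 difference was 0.31 ± 0.13 (SE; unadjusted p = 0.041, adjusted p = 0.59). LARS2 was also above both controls in all 4 ART-Normal muscles, as for 9.14% of genes, with 27.3 and 31.9 CPM in the controls and 35.6, 35.7, 37.8 and 38.7 CPM in ART-Normal 1 to 4 (log2 difference 0.31; adjusted p = 0.57; 0.20 without Control-AI 2).

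The remaining members at the edges of each class had smaller values. In liver the cytosolic WARS and MARS had log2 differences of -0.34 and -0.32 (adjusted p = 0.59 for both), and -0.17 and -0.15 without Control-AI 2. NARS, the asparaginyl enzyme, had 116 and 144 CPM in the controls and 160, 157, 158 and 164 CPM in ART-Normal 1 to 4 (log2 difference 0.31; unadjusted p = 0.043, adjusted p = 0.59; 0.15 without Control-AI 2). NARS2 in liver had a log2 difference of 0.15, which was 0.049 without Control-AI 2 and 0.070 without ART-Normal 1. YARS, AARS2, CARS2 and SARS2 were below both controls in all 4 ART-Normal livers, as were 8.81% of all genes. In muscle the cytosolic values ran from -0.14 (DARS) to 0.25 (CARS), with TARS at -0.12. Without Control-AI 4 DARS and TARS were both at -0.026, without Control-AI 2 they were -0.25 and -0.21, and CARS was 0.15 without ART-Normal 4. IARS2, like YARS2, was below both controls in all 4 ART-Normal muscles (log2 difference -0.14; adjusted p = 0.80).

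The lists beside the synthetases gave no calls between methods of conception by the quasi-likelihood test. In the amino acid response list 3 of 24 genes in liver and 3 of 17 in muscle had an unadjusted p under 0.05, beside 8.33% and 8.97% of all genes. The lowest and highest log2 differences in liver were those of TRIB3 (-0.64; adjusted p = 0.52) and CEBPB (0.70; adjusted p = 0.61), and in muscle those of ATF3 (-1.46; adjusted p = 0.33) and DDIT4 (0.57; adjusted p = 0.45). MTIF2 and MTIF3, initiation factors of mitochondrial translation, were high in Control-AI 2. MTIF3 in muscle had 26.4 CPM in that fetus and 6.01 to 11.7 CPM in the other 5, and MTIF2 in liver had 18.0 CPM against 5.93 to 10.3 CPM.

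**Figure D5:**
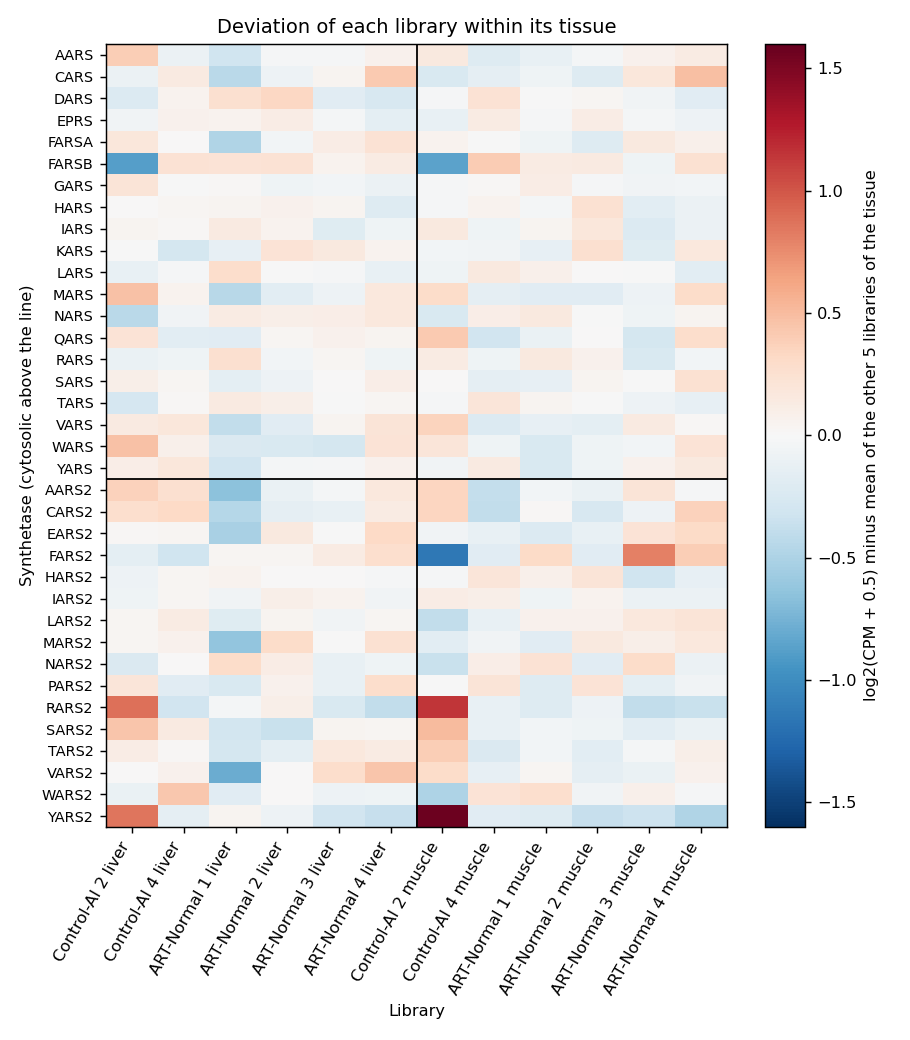
Deviation of each library (columns) from the mean of the other 5 libraries of its tissue, as log2(CPM + 0.5), for the 20 cytosolic (above the line) and 16 mitochondrial (below the line) synthetases; red is higher and blue lower. The extremes sit in Control-AI 2, where YARS2 and RARS2 are high and FARSB is low in both tissues and FARS2 is low in muscle.

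The median log2 deviation of Control-AI 2 from the other 5 fetuses was 0.03 for the cytosolic and 0.03 for the mitochondrial enzymes in liver, and -0.01 and 0.06 in muscle. Beyond 0.5 in either direction lay 1 of 20 cytosolic and 2 of 16 mitochondrial enzymes in its liver, beside 1847 of 11375 genes, and 1 of 20 and 4 of 16 in its muscle, beside 1983 of 11690 genes. Deviations of single enzymes in its muscle ran from -1.14 (FARS2) to 1.57 (YARS2). ART-Normal 1 had the lowest class median among the livers, -0.22 for the mitochondrial enzymes, with VARS2 and AARS2 at 12.4 and 16.5 CPM against 19.9 to 25.8 and 22.9 to 30.1 CPM in the other livers. In that liver 0 of 20 cytosolic and 4 of 16 mitochondrial enzymes lay beyond 0.5, beside 1394 of 11375 genes. The median size of the deviation over all genes was 0.24 there, against 0.22 in the liver of Control-AI 2.

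The third comparison asked whether the difference between methods of conception was itself different in liver and muscle. The interaction of tissue and conception called 0 of 36 members, beside 0.0% of 12940 genes (edgeR quasi-likelihood test). In this test 5.54% of all genes had an unadjusted p under 0.05. The likelihood ratio test called no member, beside 0.781% of all genes. LARS2 had the smallest p, with a log2 difference of -0.42 ± 0.17 (SE; unadjusted p = 0.025, adjusted p = 0.84), from -0.10 in liver and 0.31 in muscle. YARS2 and FARS2 had larger values with wider errors, 0.55 ± 0.45 (SE; adjusted p = 0.96) and -0.50 ± 0.32 (SE; adjusted p = 0.95).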

How the data were processed

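RNA-seq gene counts of liver and skeletal muscle from 6 fetuses were used; 5 kidney samples that are also labelled were not analysed here. Libraries were strand-specific, from poly(A) RNA, with 150-bp paired reads. The authors deposited raw counts per gene with no normalization. The submitters' processing notes list FastQC 0.11.7, HISAT2 2.1.0, Cufflinks, SAMtools, featureCounts and edgeR 3.24.3, with the build ARS-UCD1.2; the strand setting of the counting is not given in the sources used here, so reads of 8 members that overlap a gene on the opposite strand, and of VARS, which overlaps LSM2 on its own strand, may be shared. Each of the 21048 deposited lengths equals the gene's end minus its start plus 1. Of the count columns, 12 were used and 14 (7 per tissue) were not used here. The authors also deposited tables of their own comparisons (log2 fold change, log2 CPM, likelihood ratio, p-value and FDR), which were not used.

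Genes that reached 5 CPM throughout at least 1 group were fitted with edgeR 4.0.16 (R 4.3.3), TMM normalization and the quasi-likelihood test, two-sided, with Benjamini-Hochberg adjustment over all genes tested and a threshold of 0.05. Each tissue was fitted alone for conception; all 12 libraries were fitted for tissue (conception as covariate) and for the interaction. Each standard error is the log2 fold change divided by the root of its F statistic. Printed CPM share 1 TMM scale over 12 libraries, and per-library ratios used CPM plus 0.5. Python 3.11.15, pandas 2.3.3, NumPy 2.4.6 and Matplotlib 3.10.9 made tables and plots. The fits were tested on simulated data with 200 changed genes. No pair of libraries of a group agreed within sampling noise (chi-square per degree of freedom 17.4 to 363).

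Liver and muscle of a fetus are paired by the fetus number in the labels; deviations from group means correlated between the 2 tissues at r of 0.08 to 0.66 over 9641 genes, as a description. The fit with the fetus as a block was an alternative, as were RLE scaling, library size alone, no filter, a filter of 10 counts per library, the likelihood ratio test, DESeq2 1.42.0, ART-Normal 1 to 3 only, both tissues in 1 fit, and leaving out each library or fetus.

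The members and lists were chosen with earlier results of these data known. Members with values given are those past the threshold between methods of conception, the 2 largest rises and falls per class and tissue, the 3 largest tissue differences each way per class, and per list the largest rise and fall; the other genes named were chosen after their values were seen. A scale per transcript length, which the plan named for ranking levels between genes, could not be made from gene spans.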

Additional observations from a re-analysis of the deposited data

Results flagged for a closer look

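Values of single ART-Normal libraries were checked for distance from the other 3 of their group, relative to the group's range (Dixon's test at the 95% level). Of 72 groups, 36 members in each of 2 tissues, 5 were past it, and chance alone gives about 1 in 20. In liver, ART-Normal 4 was low for HARS (57.7 CPM, others 66.8 to 67.8 CPM) and high for WARS (24.3 CPM, others 18.1 to 18.6 CPM), and ART-Normal 1 was low for QARS (72.2 CPM, others 81.6 to 83.4 CPM). In muscle, ART-Normal 1 was high for GARS (48.3 CPM, others 43.7 to 44.4 CPM) and ART-Normal 2 was high for IARS2 (138 CPM, others 127 to 129 CPM).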

How the results depend on the processing

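The control group held 2 fetuses, so a comparison without one of them assumes that the other varies like the ART-Normal fetuses. In the fits of conception within a tissue, p-values measure the spread between these 6 fetuses. The main fits for tissue and the interaction took 12 libraries with no term for the fetus, so their p-values ignore the pairing. Leaving out each library in turn gave 0 to 3 synthetases called between methods of conception in liver and 0 to 4 in muscle; the highest counts came without Control-AI 4, which leaves Control-AI 2 as the only control (FARSB, RARS2 and YARS2 in liver, and these with FARS2 in muscle). DESeq2 called 1 synthetase in muscle, beside 0.932% of all genes. With both controls in the fit, the interaction called 0 members under every alternative run, beside at most 0.781% of all genes. Without each fetus in turn, 13 to 15 cytosolic and 8 to 10 mitochondrial enzymes were higher in liver, and 2 and 1 to 2 were higher in muscle. Of all genes, 78.4% to 81.6% were called in these fits, in either direction. Under library size alone the median of all genes moved from 0.01 to -0.13, and 10 cytosolic and 7 mitochondrial enzymes were higher in liver. Of all genes, 78.5% were called in that fit, and 44.2% of those were higher in liver. The calls of AARS, EPRS, FARSB, IARS, LARS and PARS2 were lost, and every called member kept its direction. The mean summed log2 ratios of liver over muscle were then 0.27 ± 0.20 (SD, n = 6; cytosolic) and 0.14 ± 0.25 (SD, n = 6; mitochondrial). Single fetuses ran from -0.13 to 0.42 and from -0.32 to 0.36, with Control-AI 2 the lowest in both and higher in muscle. Per kb of gene span the mitochondrial sum gave 0.36 on the TMM scale and 0.22 under library size alone. With the fetus as a replicate block 28 members were called between tissues in place of 27, beside 84.7% of all genes in place of 81.3%. Among the members the block changed no call but that of YARS2. The numbers 2 and 4 shared by Control-AI and ART-Normal are only names (r of deviations -0.27 to 0.01). The replicate block on them called 0 members in either tissue, beside 0.0527% of all genes in liver and 0.736% in muscle.

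The log2 difference between methods of conception changed sign in at least 1 fit without a library for 16 of 36 members in liver and 23 of 35 in muscle, and that between tissues for 4 of 36 (CARS, KARS, QARS and FARS2); none of these was called with all libraries in the fit. Among the members chosen by the rule for named genes the ranges that crossed 0 were -0.054 to 0.89 for FARSB and -0.84 to 0.14 for RARS2 in liver, -0.25 to 0.82 for FARSB in muscle, and -0.077 to 0.0086 for CARS between tissues. The cause was not tested.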
